A study of Homo sapiens with 8 samples.

Results

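Of 20037 protein-coding genes of the RefSeq annotation, 10 that handle iron and heme were taken by name: TF, TFRC, TFR2, HAMP, HJV, FTL, FTH1, SLC40A1, HP and HPX. Each was examined over its gene span (from the first to the last annotated base, hg38) and over a window of the span with 50 kb on each side. The values come from CUT&RUN, in which an antibody guides a nuclease to its target in permeabilised cells and the released DNA is sequenced. The cells were HepG2, a human hepatoblastoma line. The siControl group received a non-targeting siRNA and the siANP32B group 1 siRNA against ANP32B, a histone chaperone, and both were harvested after 3 days. Each group had 2 libraries made with an antibody against macroH2A1, a variant of histone H2A that carries a bulky macro domain and tends to occupy broad stretches of little transcription. The other 4 of the 8 libraries, made with IgG, were not analysed here. The question behind the series is whether this chaperone governs the incorporation of macroH2A.

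Iron circulates bound to transferrin (TF) and enters cells through transferrin receptors. Surplus iron is held in ferritin, made of a light (FTL) and a heavy (FTH1) chain, and leaves cells through ferroportin (SLC40A1). The liver sets the level in blood by secreting hepcidin (HAMP), which drives ferroportin to degradation, and hepatocytes also secrete the scavengers of free haemoglobin (haptoglobin, HP) and free heme (hemopexin, HPX). The files hold no expression values, so neither the activity of these genes nor the liver identity of the cells was checked from them. The number of reads behind each library is unknown, and with 2 libraries per group the smallest two-sided exact permutation p is 0.333. Whether replicates came from separate cultures is not stated, so spreads may be technical.

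In control cells, 5 of the 10 genes lay in macroH2A1 domains, with at least 50% of the span covered in both siControl libraries: TF, HAMP, HJV, FTH1 and SLC40A1. The same held for 13.8% of all protein-coding genes. TFR2 and HP were in no domain in any of the 4 libraries, as were 46.9% of all protein-coding genes. TFRC was covered by 8.82% at most, and FTL and HPX were covered in 1 siControl library and not in the other. Ordered by the mean cover of the window in siControl (n = 2 each), FTH1 (100%) and SLC40A1 (97.5% ± 3.51, SD) came first. HJV (66.7% ± 8.08), HAMP (55.3% ± 21.1), TF (42.2% ± 1.498), TFRC (40.7% ± 11.1), TFR2 (38.9% ± 14.5) and FTL (32.8% ± 13.2) followed, and each overlapped the next in its libraries. HPX (16.4% ± 5.14) and HP (4.63% in both) stood apart below, beside a median of 17.1% over all protein-coding genes. After siANP32B the gene spans of TF, HJV, FTH1, SLC40A1 and HPX were covered in both libraries, against 17.3% of all protein-coding genes. The count of 5 in control cells was 3 when 75% of the span was required, since TF and SLC40A1 were covered in part, and 3 when a score floor shared by the 4 lists was set.

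**Figure D1:**
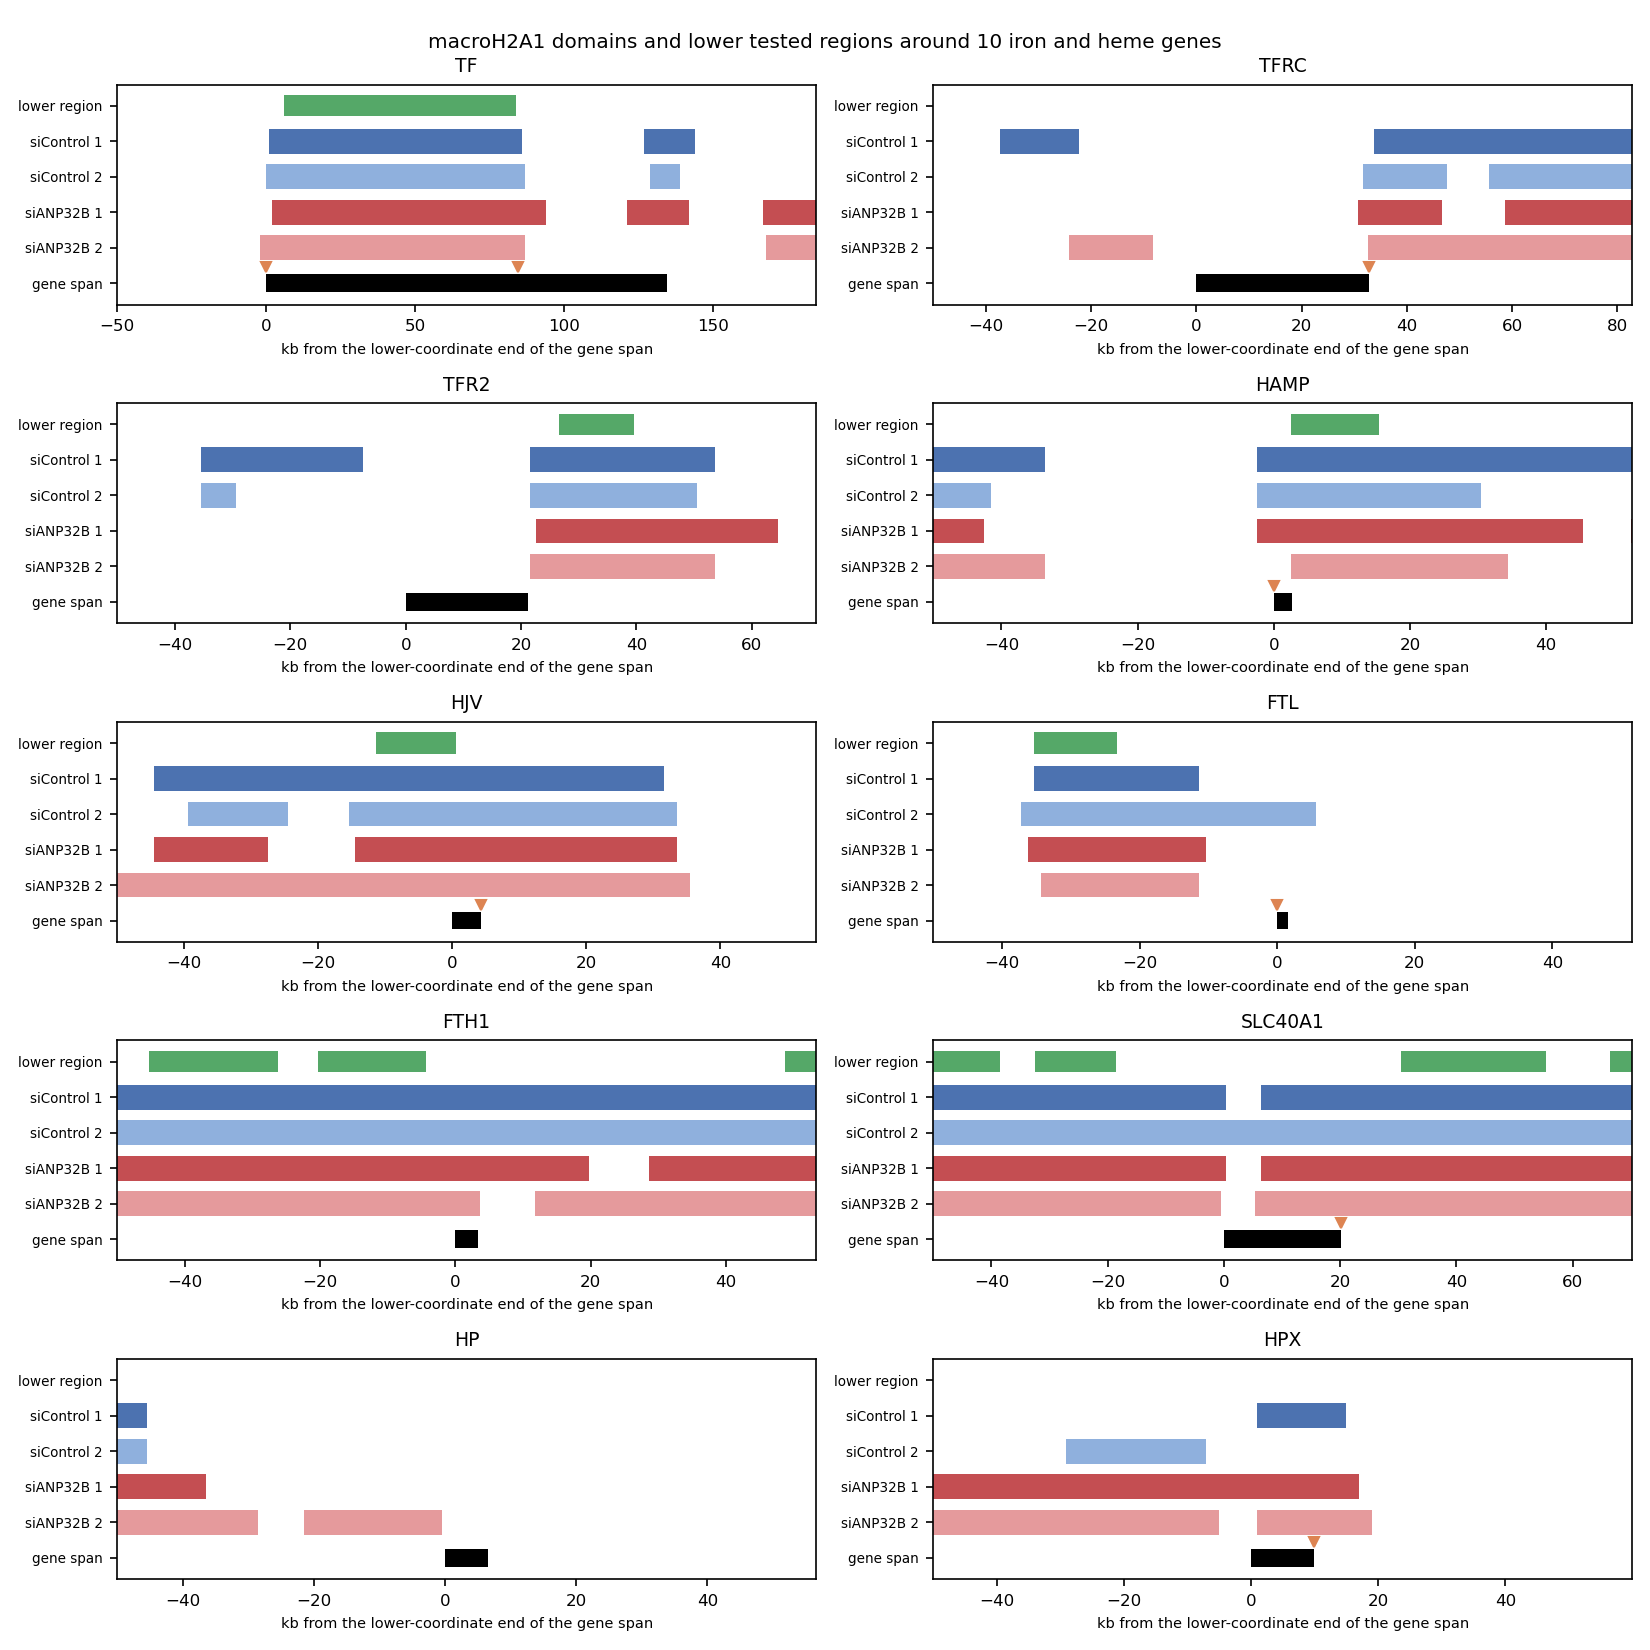
Domains (bars) in the 4 anti-macroH2A1 libraries around each of the 10 genes, in kb from the lower-coordinate end of the gene span (black), with annotated start sites (orange triangles, 7 genes) and the regions that the authors' deposited table gives as lower (green). Bars that reach the panel edge continue beyond the window; HP and TFR2 lie in no domain in any library, and each of the 12 green regions is at least 91.7% in domains in every library.

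The start sites of the genes differed in sequence and in whether a domain reached them. The RefSeq table of promoters (GRCh38.p14) matched 7 of the 10 genes, with 8 start sites, since TF has 2. The 250 bases before the start are printed for 6 of the sites because they set CpG-poor starts inside domains beside CpG-rich ones; capitals mark each CpG, and all are written 5′ to 3′ on the strand of the gene.
HAMP (chr19:35282278-35282527, plus strand): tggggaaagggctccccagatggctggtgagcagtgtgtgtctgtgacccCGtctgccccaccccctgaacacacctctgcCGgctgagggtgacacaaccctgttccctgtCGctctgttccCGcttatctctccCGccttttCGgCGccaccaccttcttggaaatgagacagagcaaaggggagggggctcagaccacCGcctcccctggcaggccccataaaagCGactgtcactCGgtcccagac
HJV (chr1:146021736-146021985, minus strand): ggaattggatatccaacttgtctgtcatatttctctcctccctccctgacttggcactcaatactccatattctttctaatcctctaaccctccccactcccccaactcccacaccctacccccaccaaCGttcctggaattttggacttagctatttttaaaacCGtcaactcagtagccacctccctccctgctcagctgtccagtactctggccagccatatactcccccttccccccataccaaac
HPX (chr11:6440988-6441237, minus strand): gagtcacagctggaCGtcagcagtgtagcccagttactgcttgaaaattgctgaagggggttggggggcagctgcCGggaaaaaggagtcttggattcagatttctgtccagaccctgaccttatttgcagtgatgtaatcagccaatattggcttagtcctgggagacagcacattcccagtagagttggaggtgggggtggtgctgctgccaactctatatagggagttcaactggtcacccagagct
TF, downstream start (chr3:133746143-133746392, plus strand): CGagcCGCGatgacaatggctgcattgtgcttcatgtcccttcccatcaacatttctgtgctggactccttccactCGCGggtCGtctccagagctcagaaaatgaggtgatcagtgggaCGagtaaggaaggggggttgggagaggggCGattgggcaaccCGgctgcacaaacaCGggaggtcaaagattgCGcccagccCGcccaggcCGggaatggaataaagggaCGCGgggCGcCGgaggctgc
TFRC (chr3:196082091-196082340, minus strand): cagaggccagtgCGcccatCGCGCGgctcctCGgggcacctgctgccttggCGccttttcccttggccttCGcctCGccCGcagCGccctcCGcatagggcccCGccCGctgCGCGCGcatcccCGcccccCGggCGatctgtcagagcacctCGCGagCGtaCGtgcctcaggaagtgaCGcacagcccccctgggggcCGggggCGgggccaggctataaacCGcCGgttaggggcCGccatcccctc
SLC40A1 (chr2:189580787-189581036, minus strand): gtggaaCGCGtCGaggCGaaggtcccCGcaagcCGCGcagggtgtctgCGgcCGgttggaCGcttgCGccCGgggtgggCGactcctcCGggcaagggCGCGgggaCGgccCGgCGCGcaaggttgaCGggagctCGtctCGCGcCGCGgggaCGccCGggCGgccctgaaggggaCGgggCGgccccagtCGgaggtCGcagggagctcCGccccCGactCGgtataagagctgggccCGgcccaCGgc

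HJV and HPX hold 2 CpG each, HAMP 10, the downstream start of TF 17, TFRC 29 and SLC40A1 38, against a median of 16 over 22199 start sites. FTL, not printed, holds 18 and the upstream start of TF 34. The start site lay in a domain in all 4 libraries for HJV, SLC40A1 and the downstream start of TF. It lay in 3 libraries for HAMP, HPX and TFRC and in 1 for FTL and the upstream start of TF. Of all start sites, 16.6% lay in domains of both siControl libraries, 19.5% of those with fewer CpG than the median and 13.9% of the rest. The start of HJV, with as few CpG as any of these sites, and that of SLC40A1, with the most, both lay inside domains. The HAMP promoter holds GGCGCC 105 bases and TTCTTGGAA 93 bases before the start, letters known from studies of its response to BMP and to STAT3 signalling. Each was searched separately on both strands. GGCGCC occurred in 20.7% of all promoters, TF and TFRC among them, and TTCTTGGAA in 0.297%, of the 7 genes matched in HAMP alone. These matches are a description and not evidence of binding.

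Among the genes of iron transport and uptake, TF was covered and its receptors were not. The TF span on chromosome 3 (133661998 to 133796641) was covered by 68.4% in both siControl libraries and by 77.9% and 64.7% in the siANP32B libraries. The groups overlapped (exact permutation p = 1, n = 2 each). The cover was not even along the gene. The 84.4 kb between its upstream and downstream start sites were covered by 97.7% and 98.8% in siControl, against 96.5% and 100% in siANP32B libraries. The 50.2 kb from the downstream start to the end of the gene were covered by 19.6% and 17.6% in siControl, against 47.1% and 5.88% in siANP32B libraries. In each of the 4 libraries the large domain ended past the downstream start, by 1.61, 2.61, 9.61 and 2.61 kb. Its score stood above that of at least 91.5% of the domains of the same list in each of the 4 libraries.

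The lower region at TF also ended close to the downstream start. In the authors' deposited table it ran from 133668001 to 133746000, 393 bp short of the downstream start, with a log2 fold of -0.64 (FDR 0.0181). It was fully in domains in all 4 libraries, and 24 of its 52 windows were counted as down in the authors' deposited table. The window of TF was covered by 43.2% and 41.1% in siControl, against 55.5% and 44.9% in siANP32B libraries, a difference of 8.05 points (pooled SD 5.40, exact permutation p = 0.333, n = 2 each). RAB6B, a neighbour partly in this window and chosen after its values were seen, was covered by 0% in both siControl, against 79.2% and 47.2% in siANP32B libraries. At TOPBP1, LOC124909487 and SRPRB, other neighbours in or partly in this window, the groups overlapped. SRPRB, which overlaps TF, was covered by 37.8% and 22.2% in siControl, against 44.4% and 0% in siANP32B libraries. The difference at TF was 2.75 points without siANP32B replicate 1 and 13.3 points without siANP32B replicate 2.

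TFRC, which encodes the transferrin receptor of most cells, lay next to a domain rather than in one (chromosome 3, 196049284 to 196082090). Its span was covered by 0% and 5.88% in siControl, against 8.82% and 2.94% in siANP32B libraries, and the groups overlapped. A domain stretched away from the gene on the side of its start site. Its edge stopped 0.911 kb short of that site in siControl replicate 1. In siControl replicate 2 and the siANP32B libraries the domain passed over the site, by 1.09, 2.09 and 0.089 kb. The domain there reached 137 and 141 kb in siControl replicate 1 and siANP32B replicate 2, while a gap of 8 and 12 kb divided it in the other 2 libraries. The window was covered by 48.5% and 32.8% in siControl, against 30.6% and 50.0% in siANP32B libraries, with no separation between the groups. No tested region fell in the window.

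TFR2, a second transferrin receptor that acts in iron sensing in the liver, was the other gene beside a domain (chromosome 7, 100620420 to 100641552). No library had a domain on its span. A domain began 0.448 kb past its higher-coordinate end in both siControl libraries and in siANP32B replicate 2, and 1.45 kb past it in siANP32B replicate 1. This domain held ACTL6B, a neighbour that encodes a neuronal chromatin remodelling subunit, which was fully covered in the 4 libraries. Over ACTL6B and 5.45 kb from TFR2, the authors' deposited table gives a lower region (100647001 to 100660000) with a log2 fold of -0.65 (FDR 0.00123). The window was covered by 49.2% and 28.7% in siControl, against 34.4% and 26.2% in siANP32B libraries, so that the groups overlapped. FBXO24, a neighbour in this window chosen after its values were seen, was covered by 100% and 31.3% in siControl, against 0% in both siANP32B libraries. Of other neighbours, also chosen after their values were seen, LRCH4, PCOLCE and MOSPD3 had a lower mean after siANP32B. The mean was higher at GNB2 (14.3% and 0% in siControl, 100% and 14.3% in siANP32B libraries). It was also higher at GIGYF1 (0% in both siControl, 37.5% and 0% in siANP32B libraries).

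Both genes of hepcidin control were covered in control cells. HAMP (chromosome 19, 35282528 to 35285143) was fully covered in both siControl libraries and in siANP32B replicate 1, and by 25% in siANP32B replicate 2. In the first 3 libraries the domain began 2.53 kb before the start of HAMP, and in the last it began 2.47 kb after it. On the other side of this edge lies USF2, which encodes a transcription factor; this gene, chosen after its values were seen, was in no domain in the 4 libraries. The difference of the HAMP span, -37.5 points, therefore rested on 1 library: without siANP32B replicate 2 it was 0. Its window was covered by 70.2% and 40.4% in siControl, against 54.8% and 47.1% in siANP32B libraries, with overlap.

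HJV encodes hemojuvelin, a BMP co-receptor through which hepatocytes raise hepcidin (chromosome 1, 146017470 to 146021735). It was fully covered in all 4 libraries as deposited, in domains of 76 and 49 kb in siControl and 48 and 97 kb in siANP32B libraries. The scores of these domains exceeded those of 69.9% of the list in siControl replicate 1, but only of 8.64%, 5.23% and 16.7% in siControl replicate 2 and the siANP32B libraries. At the 3′ end of HJV a lower region shared 531 bp with the gene (146006001 to 146018000) and had a log2 fold of -0.65 (FDR 0.00380) in the authors' deposited table. At HAMP the lower region (35285001 to 35298000) shared 143 bp with the gene and lay mostly towards MAG, a gene of the myelin sheath, with a log2 fold of -0.63 (FDR 0.00251) in the authors' deposited table. Both regions were fully in domains in the 4 libraries, and all 3 windows of each were counted as down in the authors' deposited table.

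Of the 2 ferritin chains, the heavy one was in domains throughout and the light one in a single library. FTH1 (chromosome 11, 61964285 to 61967634) was fully covered in all 4 libraries and FTL (chromosome 19, 48965309 to 48966879) in siControl replicate 2 alone. Around FTH1 a single domain of 219 and 185 kb filled the window in the siControl libraries. In both siANP32B libraries it was divided, by a gap of 9 kb that began 16.4 kb past the higher-coordinate end of FTH1 in replicate 1 and a gap of 8 kb that began 0.366 kb past it in replicate 2. The 2 gaps did not overlap each other. The window was covered by 100% in both siControl, against 91.3% and 92.3% in siANP32B libraries, a difference of -8.17 points (pooled SD 0.481, exact permutation p = 0.333, n = 2 each). With flanks of 100 kb the sign turned, to 8.33 points.

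Tested regions flanked FTH1 without reaching it. According to the authors' deposited table, 3 lower regions lay 26.3, 4.28 and 45.4 kb from the gene, with log2 folds of -0.74, -0.60 and -0.72 (FDR 0.00215, 0.00758 and 0.00351). The first and second lie over RAB3IL1 and BEST1, the latter a gene of a chloride channel that overlaps FTH1. The third, of 50 kb, lay mostly outside the window. At FTL the domain of 23 to 26 kb in 3 libraries ended 10.3 to 11.3 kb short of the gene, and in siControl replicate 2 it reached 43 kb and took in BAX, a gene of apoptosis, and FTL. The difference of the FTL span, -50 points, was 0 without siControl replicate 2. The lower region near FTL lay over DHDH, 23.3 kb away, with a log2 fold of -0.70 (FDR 0.00364) in the authors' deposited table. It was covered by 91.7% in siANP32B replicate 2 and fully in the other 3 libraries. Ferritin genes have many processed copies in the genome, so reads at the genes themselves may not be placed with certainty.

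SLC40A1, the only known cellular iron exporter, lay within broad domains in all 4 libraries (chromosome 2, 189560590 to 189580786). The span was covered by 71.4% and 100% in siControl, against 71.4% in both siANP32B libraries, and the window by 95.0% and 100% against 95.0% in both. The same notch of 6 kb over the 3′ part of the gene, shifted by 1 kb in siANP32B replicate 2, was left uncovered in 3 libraries. In siControl replicate 2 it was bridged by a domain of 190 kb. No other protein-coding gene lies in this window. Counted at 1 bp of overlap, it held 4 lower regions, under that rule the most of any of the 10 genes. They lay 38.6, 18.6, 10.2 and 46.2 kb from the gene, the first and the last mostly outside the window. The log2 folds of the 4 regions in the authors' deposited table were -0.64, -0.48, -0.63 and -0.77 (FDR 0.00116, 0.0145, 0.00302 and 4.63e-05). The last of these, of 10 kb with a single window, had the smallest FDR of all regions near the 10 genes in the authors' deposited table. All 4 were fully in domains in each library.

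The 2 scavenger genes had more domain sequence around them after siANP32B, and no tested region. Both siANP32B lists also covered more sequence in all (564 and 559 Mb) than both siControl lists (519 and 467 Mb). Around HPX (chromosome 11, 6431049 to 6440987) the window was covered by 12.7% and 20.0% in siControl, against 60.9% and 57.3% in siANP32B libraries. Both siANP32B libraries stood well above both siControl libraries, by 42.7 points (pooled SD 4.07, exact permutation p = 0.333, n = 2 each). The gene span itself was covered by 90.0% and 0% in siControl, against 100% and 90.0% in siANP32B libraries, with overlap, and the difference of 50 points was 5 points without siControl replicate 2. The neighbours with more cover lie in the window on the lower-coordinate side of HPX. SMPD1, which encodes acid sphingomyelinase, was covered by 0% in both siControl, against 100% in both siANP32B libraries. APBB1, an adaptor of the amyloid precursor protein, was covered by 0% and 72% in siControl, against 100% in both siANP32B libraries. On the other side of HPX, TRIM3 was covered by 0% in both siControl, against 0% and 7.41% in siANP32B libraries. ARFIP2 and TIMM10B, further out on that side and chosen after their values were seen, were in no domain in any library.

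HP (chromosome 16, 72054505 to 72061055) was itself in no domain. Its window was covered by 4.63% in both siControl, against 13.0% and 39.8% in siANP32B libraries, a difference of 21.8 points (pooled SD 13.4, exact permutation p = 0.333, n = 2 each). The difference was 8.33 points without siANP32B replicate 2 and 35.2 points without siANP32B replicate 1. The nearest domain ended 45.5 kb from HP in both siControl libraries, 36.5 kb in siANP32B replicate 1 and 0.504 kb in siANP32B replicate 2. In the last library a separate domain of 21 kb had been called beside the gene. The domain over DHODH, a gene of pyrimidine synthesis chosen after its values were seen, covered 5.00% of that gene in both siControl, against 50.0% and 90.0% in siANP32B libraries. HPR, the near-identical neighbour of HP, also chosen after its values were seen, was in no domain, and reads at the 2 genes may not be told apart.

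**Figure D2:**
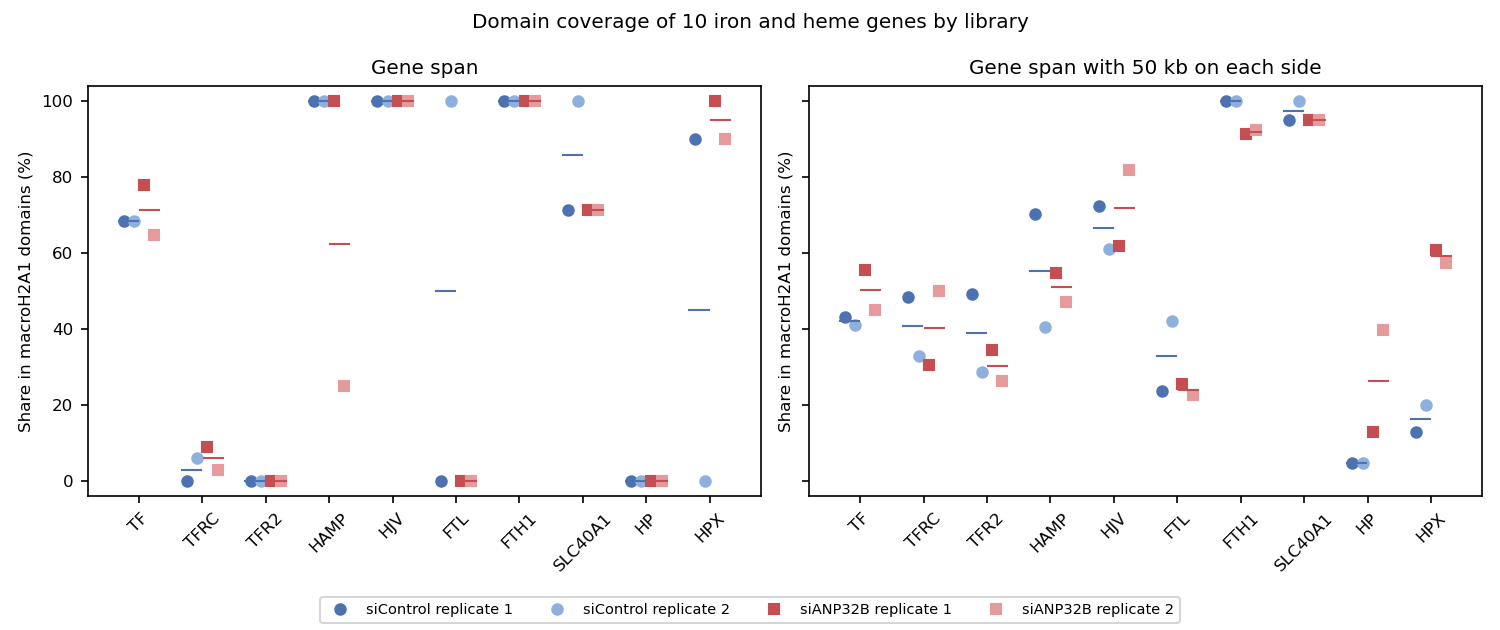
Share of the gene span (left) and of the span with 50 kb on each side (right) in macroH2A1 domains, in percent, for the 10 genes; each point is 1 library (circles siControl, squares siANP32B) and each line the mean of 2. In the right panel both siANP32B libraries of HPX (60.9% and 57.3%) stand above both siControl libraries (12.7% and 20.0%), while the gene spans on the left overlap for every gene.

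Across the 10 windows, both siANP32B libraries were higher than both siControl libraries at 3 genes (TF, HP and HPX) and lower at 1 (FTH1). The same was found for 18.7% of all protein-coding genes in the higher and 7.05% in the lower direction. For the gene spans alone the groups overlapped at all 10 genes, against 8.91% of protein-coding genes that were higher and 2.88% that were lower without overlap. The median difference of the window was -1.43 points over the 10 genes and 0 over all protein-coding genes. The quartiles over all protein-coding genes were -0.66 and 7.73 points, so more of the spread lay on the higher side. In all, the domains covered 519 and 467 Mb in siControl, against 564 and 559 Mb in siANP32B libraries. Under a score floor shared by the 4 lists none of the windows was higher. The differences were then -3.81 points at TF, -2.31 points at HP, 10.5 points at HPX and -67.8 points at FTH1. The span of FTH1 itself then differed by -100 points, fully covered in siControl and uncovered in siANP32B libraries. At SLC40A1 the difference under this floor was -50 points for the window and for the span (mean of the span 85.7% in siControl and 35.7% in siANP32B libraries). At HJV the window differed by -43.3 points and the span by -50 points (means 50% and 0%). When each list was limited to its 7404 domains of highest score, the HJV window differed by 28.6 points and the span by 50 points (means 50% and 100%), so neither the cover of HJV nor the direction of its difference held across these settings. Without siControl replicate 1, or without siANP32B replicate 1, 5 windows were higher, and leaving out any 1 library gave 2 or 3 lower windows. Leaving out a library can only keep or raise these counts, since fewer libraries then have to be separated. Scores were lower in the siANP32B lists, with medians of 70.1 and 67.5 against 88.9 and 97.7. The shared floor of 81.1 lay above both siANP32B medians and below both siControl medians. It therefore removed a larger share of the siANP32B domains, which by itself tends to lower the differences. So it cannot tell whether the higher windows hold.

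Every region tested near these genes was lower. The authors' deposited table holds 12 regions that touch the 10 windows, with a full width of 291 kb that lies in part outside them. Of these, 12 were lower and 0 higher at an FDR of 0.05 (0 higher also at an unadjusted p under 0.05). Of all 4474 regions in the authors' deposited table, 58.4% were lower and 3.82% higher. Regions that lie side by side are not independent, so 12 is not a count of separate events. At least 1 lower region lay in the window of 7 of the 10 genes (TF, TFR2, HAMP, HJV, FTL, FTH1 and SLC40A1), against 19.4% of all protein-coding genes. A tested region of any outcome lay in 30.1% of the windows of protein-coding genes, and in 64.5% of those at least 1 was lower. A lower region reached the gene span itself at 3 of the 10 genes (TF, HAMP and HJV), against 5.61% of all protein-coding genes. The overlap was 78 kb at TF, all before its downstream start, but only 143 bp at HAMP and 531 bp at HJV. With flanks of 10 kb in place of 50 kb 5 regions remained in the windows. With at least 50% of a region required in the window of 50 kb flanks, 9 regions remained, at the same 7 genes.

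The folds of these 12 regions were mostly weaker than the median of all lower regions. In the authors' deposited table they ran from -0.77 to -0.48 with a median of -0.65, beside a median of -0.70 over all 2613 lower regions (interquartile range -0.85 to -0.59) and -0.54 over all regions. None reached a fall of 1 on the log2 scale, and 3 of the 12 lay below the median of the lower regions in the authors' deposited table. The folds correspond to 58.8% to 71.9% of the control level in each representative window of the authors' deposited table. Of the 154 windows behind these regions of the authors' deposited table, 93 were counted as down and 0 as up. The sign of the contrast is not stated, and it was taken from the domain lists: of the regions with positive folds past the threshold, 99.4% were at least 50% covered in each siANP32B library, against 88.3% and 80.7% in siControl. Of the 2613 regions with negative folds past the threshold, 96.7% and 95.3% were so covered in siControl, against 91.7% and 93.0% in siANP32B libraries, a smaller difference in the opposite direction. The scaling between libraries is also not stated, and a different overall scaling would shift all folds together.

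**Figure D3:**
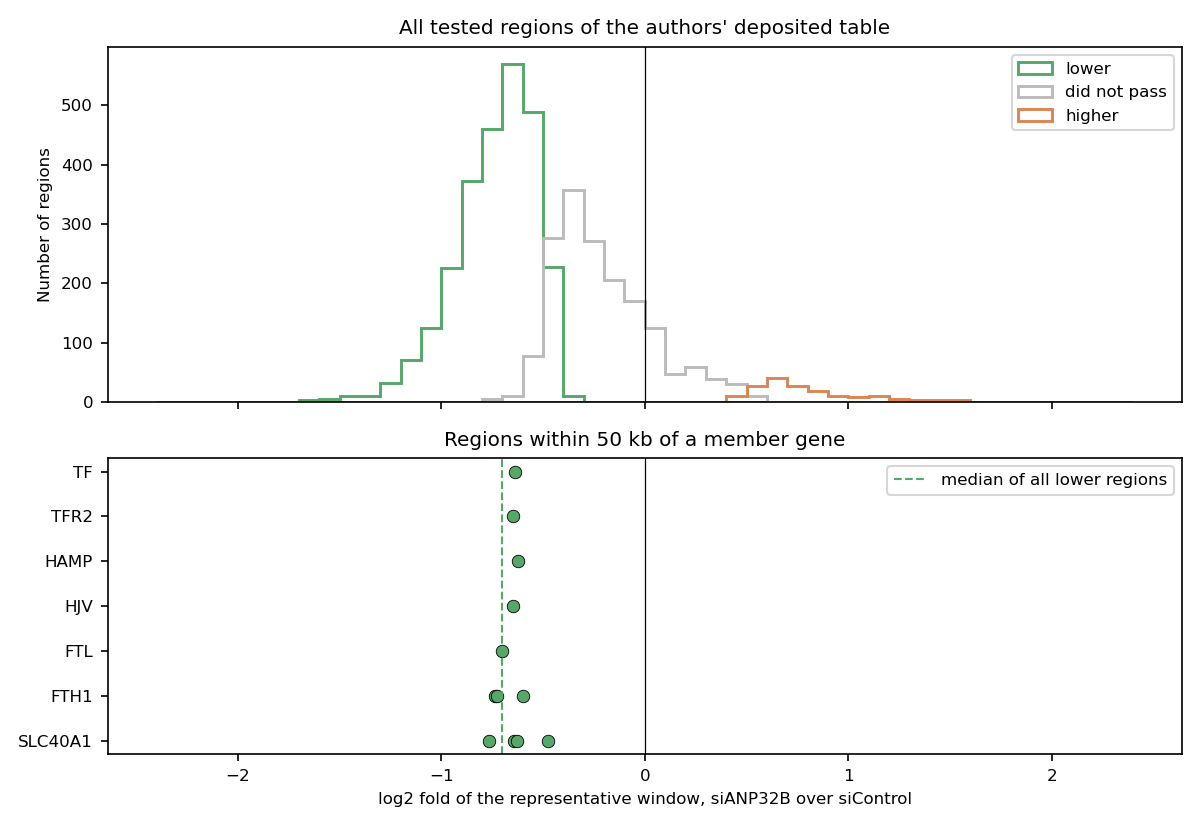
Log2 fold of the representative window (siANP32B over siControl) for all regions of the authors' deposited table, by call (top, number of regions per bin), and for the 12 regions within 50 kb of the genes (bottom, 1 point per region). All 12 lie between -0.77 and -0.48, and most are weaker than the dashed median of all lower regions (-0.70).

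The 10 genes were picked by name from a wider pathway. Of 65 iron and heme genes, 10 were covered in both siControl libraries (15.4%), and of the 55 that are not among the 10, 5 were (9.09%), beside 13.8% of all protein-coding genes. By role, 4 of 16 genes of hepcidin and its control were covered, 2 of 10 of transport and uptake, 2 of 9 of heme transport and breakdown, 1 of 6 of storage and 1 of 3 of export. None of 11 heme synthesis genes, 5 iron-responsive regulators or 5 scavenging genes was covered in both siControl libraries. No library had a domain on 23 of the 65 genes.

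HFE and TMPRSS6, which act on hepcidin in hepatocytes, were less covered in both siANP32B libraries than in either siControl library, the 2 of the 65 gene spans of which this was true. This count is near the background, since the same held for 2.88% of all protein-coding genes, and is not a result about the list. HFE, a partner of the transferrin receptors, was covered by 100% in both siControl, against 16.7% and 25% in siANP32B libraries. TMPRSS6, a protease that cuts hemojuvelin, was covered by 50.0% and 80.4% in siControl, against 17.4% and 21.7% in siANP32B libraries. The exact permutation p was 0.333 at either gene (n = 2 each), the smallest possible. The opposite order was found at 4 of the 65 gene spans (8.91% of all protein-coding genes). The region tested near HFE had a log2 fold of -0.26 (FDR 0.302) and that reaching TMPRSS6 -0.53 (FDR 0.0502) in the authors' deposited table, so neither passed. LCN2, a siderophore-binding protein, was covered by 100% in both siControl libraries and by 100% and 0% after siANP32B. BMP2, which induces hepcidin, had 100% and 35.7% against 100% in both, and CD163, the haemoglobin scavenger receptor of macrophages, 38.2% and 76.5% against 73.5% and 100%.

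Lower regions lay in the windows of 16 of the 65 genes (24.6%, beside 19.4% of all protein-coding genes) and higher regions in none, beside 1.23% of all protein-coding genes. Of the 55 other genes 9 had one (16.4%), so that the share outside the 10 genes was near the background. SLC48A1, a heme transporter, was the one gene of the 55 with a lower region on its span, with a log2 fold of -0.48 (FDR 0.0186) in the authors' deposited table. It was covered by 70.0% and 86.7% in siControl, against 100% and 66.7% in siANP32B libraries. The regions with the most negative folds in the windows of the 65 genes, chosen after their values were seen, lay beside genes. Near CP, the ferroxidase ceruloplasmin, the log2 fold was -1.46 at 47.2 kb from the gene (FDR 4.10e-13) in the authors' deposited table. On either side of SMAD7, an inhibitor of BMP and TGF-beta signalling, it was -1.26 and -1.07 (FDR 4.01e-10 and 1.60e-06) in the authors' deposited table. At ALAS1, the first enzyme of heme synthesis in liver and also chosen after its values were seen, a lower region ended 0.082 kb from the gene, with -0.74 (FDR 0.000492) in the authors' deposited table.

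**Figure D4:**
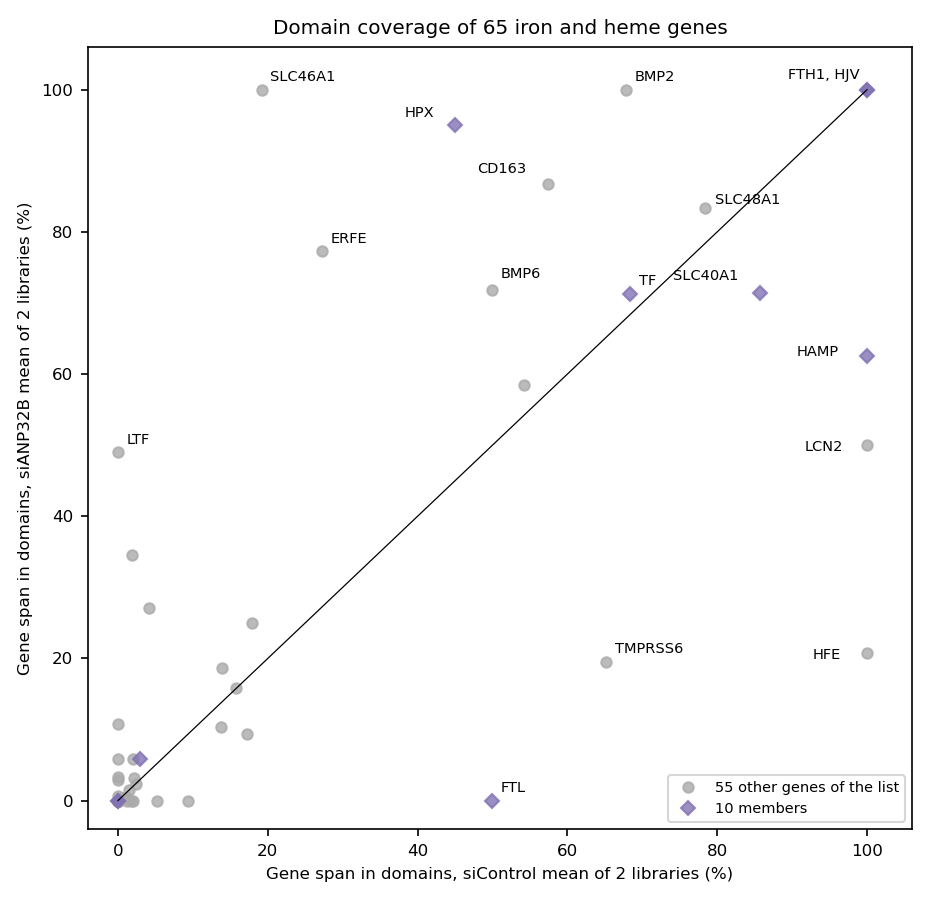
Share of the gene span in macroH2A1 domains for 65 iron and heme genes, mean of 2 siControl libraries (x axis, %) against mean of 2 siANP32B libraries (y axis, %), with the 10 genes as diamonds and the other 55 as circles. HFE, LCN2, FTL, TMPRSS6 and HAMP lie farthest below the line of equal cover and SLC46A1, HPX, ERFE and LTF farthest above it; many genes lie at or near 0 in both groups.

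SLC46A1, a folate and heme carrier chosen after its values were seen, differed from HFE in the direction of its domain cover, with 0% and 38.5% in siControl, against 100% in both siANP32B libraries. The 2 regions tested in its window had log2 folds of -0.10 and -0.04 in the authors' deposited table and did not pass (FDR 0.645 and 0.981). Cover and fold are separate measures: a domain call says that a stretch is enriched within its own library, and the fold compares libraries.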

How the data were processed

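macroH2A1 CUT&RUN libraries of HepG2 cells were compared, 2 siControl against 2 siANP32B. The submitters' processing notes name build hg38 and, as tools, SICER and edgeR besides Trim Galore, Bowtie2, deepTools and SAMtools; their settings and versions are not given here. The authors deposited a domain list per library, on a 1 kb grid, with a score per domain whose reference is not stated. The authors' deposited table gives per region, per the file headers, its p-value, its false discovery rate (FDR), a log2 fold (base taken from edgeR's convention) of 1 representative window, and numbers of windows; it holds no values per library.

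Coverage is the share of the 1 kb bins of a span that lie in a domain (Python 3.11.15, pandas 2.3.3), checked on simulated data. Regions were called at an FDR of 0.05 and counted at 1 bp of overlap with a window. Positions came from RefSeq (GRCh38.p14, the assembly of hg38). The 10 genes, the list of 65 and all rules were chosen with earlier results of these data known. Beyond the 10, named genes were neighbours sharing a called region or a covering domain, and list genes with a called region on the span or the largest siControl cover (up to 6 of each); others are marked as chosen after their values were seen.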

Additional observations from a re-analysis of the deposited data

How the results depend on the processing

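Alternatives were other score limits, equal numbers of domains (7404 per library), other cover limits and other flanks. Further ones were a stricter FDR, a larger overlap of region and window, and leaving out each library. The alternatives for the counts of higher and lower windows were added after seeing the data. The count of covered genes (5 of the 10) was 3 above a common score of 81.1 and 3 at 75% cover, and 6 without siControl replicate 1 and also without replicate 2; the 10 of the list of 65 were 6 and 5 under the same 2 settings and 13 without siControl replicate 1 and also without replicate 2. The 3 higher windows became 0 and the 1 lower window 3 above the common score; with flanks of 10 kb the lower count was 0. Leaving out 1 library gave 3 to 5 higher windows (5 without siControl replicate 1 or siANP32B replicate 1) and 2 to 3 lower ones. The window differences turned to -3.81 points at TF and -2.31 points at HP above the common score, and to 8.33 points at FTH1 with flanks of 100 kb. The 12 lower regions became 3 without flanks and 5 with flanks of 10 kb, the 7 genes with one became 3 without flanks, and the 16 of the list became 4, 9 and 29 with no flanks, 10 kb and 100 kb. With at least 50% of a region required in the window, 9 lower regions at the same 7 genes were left, and 12 genes of the list. At an FDR of 0.01, 10 lower regions at 6 genes were left, TF having dropped out. Higher regions numbered 0 under each setting, for the 10 genes. By its rule, leaving out 1 library can only keep or raise the counts of higher windows, lower windows and covered genes. The common score removed a larger share of the siANP32B than of the siControl domains. Wider or narrower flanks take in more or less sequence. Other causes of these shifts were not tested.

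Replicate numbers are shared between groups, but nothing says that they mark a shared culture. With a replicate block the differences are the same by construction (42.7 points at HPX, 21.8 points at HP, 8.05 points at TF, -8.17 points at FTH1), and the exact sign-flip p is 0.50 at each, the smallest for 2 pairs. Deviations of same-numbered libraries correlated at 0.14 across genes, which are not independent. Depth is unknown, so domain numbers and edges may follow it.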
